A study of Bos taurus with 34 samples.

Results

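The genes described here encode the proteins of the mitochondrial ribosome and of the machinery that brings proteins into mitochondria. They were chosen by symbol alone, as every row of the blastocyst and morula tables whose symbol starts with MRPL, MRPS, TIMM or TOMM followed by a digit. The blastocyst table held 101 such genes of 18442, namely 48 MRPL, 29 MRPS, 14 TIMM and 10 TOMM genes. The morula table held 99 of 14878, and all 99 were also in the blastocyst table. The rule used no measured value.

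Mitochondria keep a small genome of their own and translate its messages, all for the respiratory chain or the ATP synthase, on a ribosome that differs from that of the cytosol. The proteins of that ribosome are encoded in the nucleus, made in the cytosol and imported, like nearly all other mitochondrial proteins. MRPL symbols are named for the large subunit and MRPS symbols for the small, and the symbol does not settle the subunit of every member. Import starts at the TOM complex of the outer membrane, runs through the TIM23 complex for proteins with a presequence or the TIM22 complex for carrier proteins, and uses small TIM chaperones in the space between the membranes. Preimplantation embryos inherit their mitochondria from the oocyte, and the cells of the blastocyst rely increasingly on respiration.

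RNA was measured in single Bos taurus embryos, each of them 1 replicate. Knockouts are titled CSF2KO, whereas the series title names CSF2RA, the gene for the alpha subunit of the receptor for colony stimulating factor 2. There were 17 control blastocysts (8 female, 9 male), 9 knockout blastocysts (7 female, 2 male), 4 control morulae (1 female, 3 male) and 4 knockout morulae (3 female, 1 male). The title of control blastocyst 72 says male and its table column female, and the title was used. For knockouts and controls alike the protocols name recombinant Wnt5A and in vitro development, whereas the series title says in utero and the design text in vivo, so how the embryos were kept is not settled by the labels. Neither embryo age, breed, parents nor the editing method is given there, so p-values measure the spread between these embryos and do not separate litters, sires or editing events.

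Reads in genes ranged from 115512 to 17598170 in control blastocysts, 44879 to 988622 in knockout blastocysts, 93980 to 1526852 in control morulae and 43679 to 124603 in knockout morulae. The knockout could not be checked on its target. CSF2RA had 2 reads in 1 of 9 knockout blastocysts and 2 reads in all over 2 of 17 controls, and it was not analysed here in morulae. The 7 trophectoderm markers (CDX2, GATA2, GATA3, KRT8, KRT18, TFAP2C, TEAD4) summed to 16466.5 to 24779.8 CPM (reads scaled to an equal total per library) in knockout blastocysts and 2011 to 35563.3 in controls. In morulae they summed to 605 to 9459 CPM in knockouts and 16354.5 to 22851 in controls, without overlap. Summed markers of cumulus cells stayed between 0 and 51.9 CPM and those of leukocytes between 0 and 202 CPM in every group.

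Member genes together took a small share of each embryo's reads, with several embryos far from the rest. In control blastocysts the share ran from 0.454% to 1.66% with a median of 0.781%. In knockout blastocysts it ran from 0.697% to 1.25% with a median of 0.804%. The 4 control morulae held 0.568%, 0.709%, 0.796% and 0.858%. The 4 knockout morulae held 0.0722% (number 21), 0.405% (number 49), 0.794% (number 5) and 1.03% (number 1). Knockouts and controls overlapped at both stages. In whole embryos fewer cells of a type and less RNA per cell cannot be told apart. The knockout morulae lay on both sides of the controls, with numbers 21 and 49 below all of them and number 1 above all of them.

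**Figure D1:**
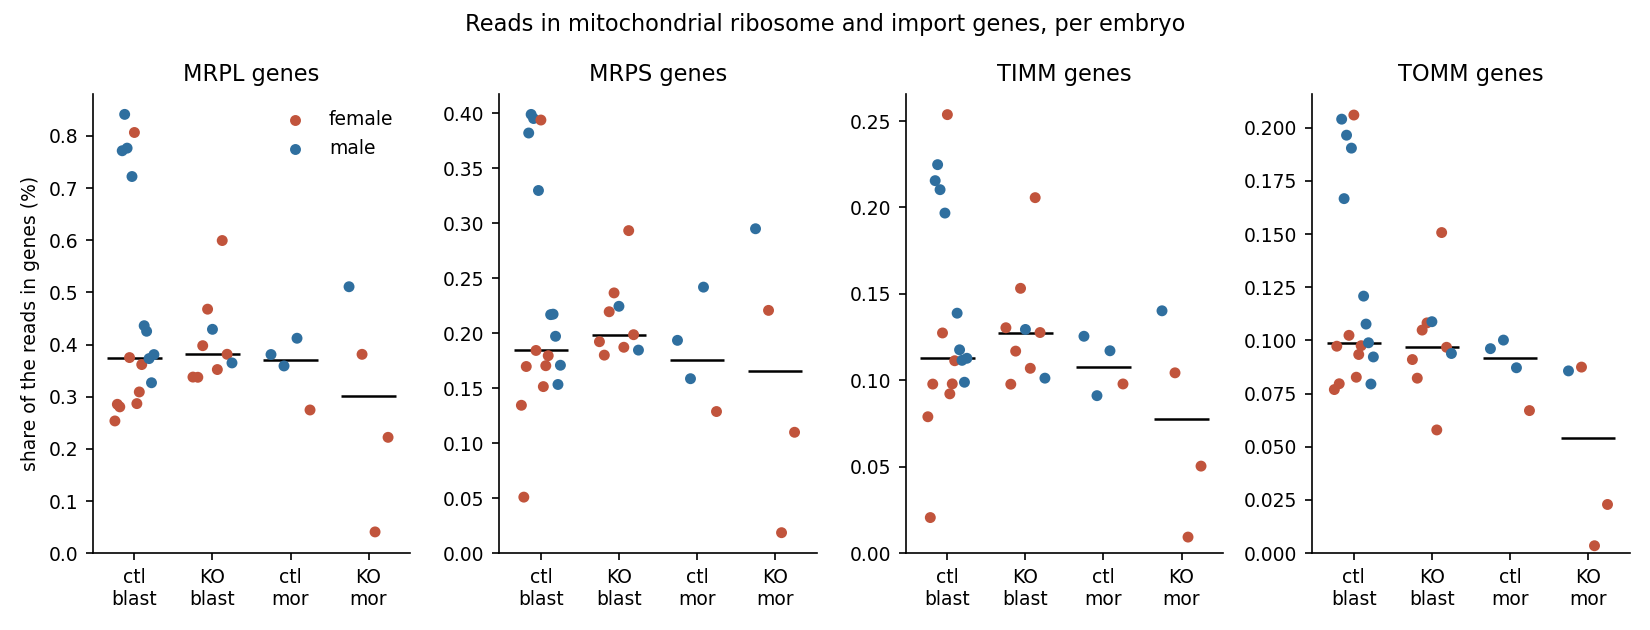
Share of the reads in genes, in percent, that fell in each class of member genes (a panel each, with its own axis from 0), with 1 point per embryo coloured by sex and a line at the median of each group. Genes of all 4 classes stand high in the same 5 control blastocysts and low in knockout morulae 21 and 49.

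The ribosomal members held the larger part, with a median of 0.375% of reads in MRPL and 0.184% in MRPS genes in control blastocysts. TIMM genes held a median of 0.113% and TOMM genes 0.0989%. In knockout blastocysts the medians were 0.381%, 0.199%, 0.128% and 0.0968%, each inside the range of the controls. The mitochondrially encoded genes, whose messages the mitochondrial ribosome translates, held a median of 3.49% in control and 3.38% in knockout blastocysts.

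A group of 6 control libraries stood apart and bears on every blastocyst result. Control blastocysts 35, 36, 37, 51 and 52, 4 of them male, held 1.44% to 1.66% of their reads in member genes, above all other blastocysts. The next highest was knockout 58 with 1.25%, and the other controls apart from number 12 held 0.544% to 0.913%. The same 5 controls had 0.458% to 1.401% of their reads in the rows of bta-mir-2887-1, a microRNA symbol, against 3.70% to 5.19% in the other controls and 1.85% to 8.63% in knockouts. Control blastocyst 12 had 0.0339% in those rows, reads in 16 of 101 members and 17.3% of its reads in mitochondrially encoded genes. Its members with reads were few but strong, with 629 reads of MRPL41 (1009 RPKM) and 586 of MRPL57 (557.2 RPKM) beside 0 of TOMM40 and 0 of TIMM50. RPKM is the reads per kilobase, scaled to library size, here per kilobase of the gene's span in the genome with introns.

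**Figure D2:**
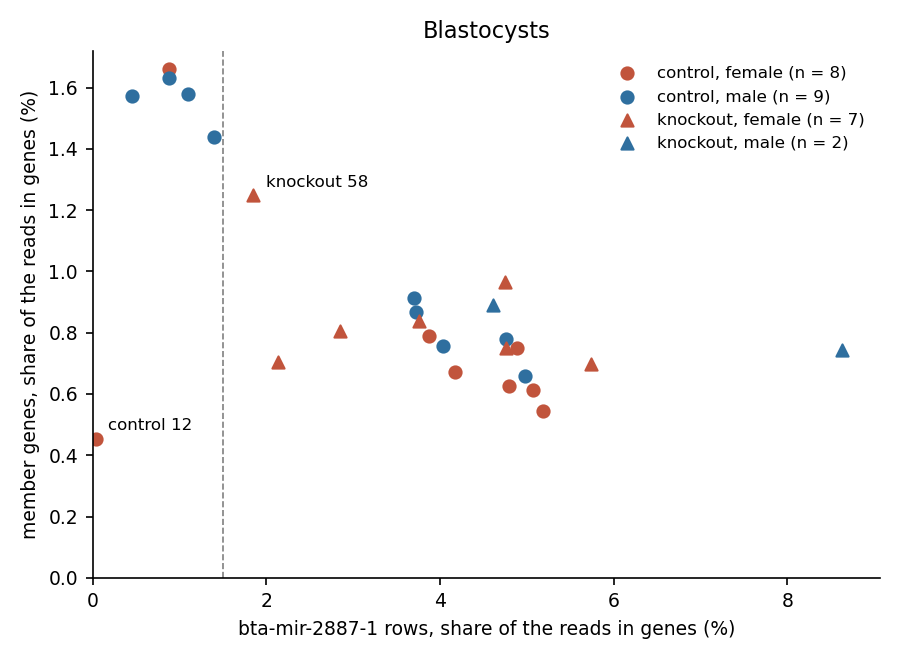
Share of reads in member genes (vertical axis, percent) against the share in the bta-mir-2887-1 rows (horizontal axis, percent) for the 26 blastocysts, with circles for controls, triangles for knockouts and colour for sex. Left of the dashed line at 1.5% lie 6 control blastocysts, of which 5 hold 1.44% or more in member genes and number 12 holds 0.454%.

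Within those 5 controls the members differed in how far they stood above the 11 other controls. Among the 98 members with a median of at least 5 CPM in the 11 controls, the ratio of the medians had a median of 2.19 and lay above 1 for 89. These 5 are also the controls of highest member share, so ratios above 1 over the members describe that share and are no separate result. Over all 9286 genes at that level the median ratio was 0.785, and 34.9% lay above 1. All 46 MRPL genes lay above 1, with a median of 2.31, and 25 of 29 MRPS genes did, with a median of 2.28. TIMM genes had a median of 1.75 and TOMM genes of 1.35. Import genes stood at both ends of the order. TIMM8B, a small TIM chaperone, had the highest ratio at 6.17, with 268.7 to 478 CPM against 29.3 to 88.4. The lowest ratio was 0.624, in TIMM29. TOMM40, the outer membrane channel, came next at 0.627, with 76.5 to 176 CPM against 86.6 to 281. The 5 controls and the 11 did not overlap in TIMM8B and overlapped in TOMM40. Nuclear genes of the respiratory chain and ATP synthase were also high in the 5 controls, with 4.86% to 5.98% of reads against 1.498% to 2.78%. Cytosolic ribosomal protein genes were high in them too, with 4.88% to 6.58% against 2.91% to 4.34%. So the shift was not particular to genes of mitochondria. Mitochondrially encoded genes were not high, with 2.62% to 4.42% against 3.12% to 4.61%. How library preparation bears on this was not tested.

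Most members were detected in nearly every embryo. Leaving aside control 12 and knockout 57, the 2 blastocysts with the fewest, each blastocyst had reads in 93 to 101 of 101 members. Knockout 57 had reads in 79. Apart from knockouts 21 and 49 each morula had reads in 87 to 99 of 99 members. Knockout morula 49 had reads in 66 members and number 21 in 33. By CPM, which is not per length, the 3 highest members were the same at both stages. These were TIMM13, a small TIM chaperone, with a median of 269.5 CPM in blastocysts and 201 in morulae, MRPL38 with 239 and 228, and MRPS26 with 205 and 194. In blastocysts the lowest were MRPL24 with 8 reads in 2 of 26 embryos, TOMM20L with 30 reads in 9 and MRPL33 with a median of 4.67 CPM. In morulae they were MRPL33 with 7 reads in 2 of 8 embryos, MRPS22 with 71 reads in 4 and TOMM34 with 17 reads in 5. The 2 tables were normalized separately, so values of the stages are set side by side without a test.

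In the outer membrane, levels in knockout and control blastocysts overlapped for each subunit. TOMM20, the receptor for presequences, ran from 0 to 23.3 RPKM in controls with a median of 12.9 and from 2.25 to 16.2 in knockouts with a median of 13.2. TOMM22, the central receptor, had medians of 55.8 in controls and 57.04 in knockouts, with ranges of 0 to 122 and 16.8 to 75.9. TOMM70, a receptor for carrier proteins, was low on this scale with medians of 2.82 and 3.12 RPKM. The pore TOMM40 had medians of 12.5 and 11.2, with ranges of 0 to 23.1 and 6.28 to 18.8. Of the small subunits, TOMM6 had medians of 119.9 and 134 RPKM, TOMM5 of 30.8 and 31.4 and TOMM7 of 24.5 and 18.4. In 5 of these 7 subunits control 12 was at 0, and no other blastocyst was. The medians of the groups differed by less than the range of either group.

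Inner membrane subunits overlapped between the groups of blastocysts too. TIMM23, the presequence channel, had a median of 5.94 RPKM in controls (0 to 12.5) and 7.66 in knockouts (4.21 to 11.1). Its receptor TIMM50 had medians of 21.4 and 20.7. TIMM44, which tethers the import motor, had medians of 5.68 and 5.94, and TIMM22, the carrier channel, of 3.49 and 4.24. Among the chaperones TIMM10 had medians of 48.5 in controls and 44.7 in knockouts, TIMM13 of 226 and 231, and TIMM9, a partner of TIMM10, stayed low with 0.630 and 0.321 RPKM. The groups overlapped in each of these genes.

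On the ribosome, too, knockout and control blastocysts overlapped gene by gene. Per kilobase of span the highest members were MRPL36 and MRPL41, proteins of the large subunit with short genes. MRPL36 ran from 0 to 610.3 RPKM in controls with a median of 308 and from 54.8 to 622 in knockouts with a median of 321. MRPL41 ran from 177 to 1253 in controls with a median of 269 and from 231 to 500 in knockouts with a median of 263. Among proteins of the small subunit MRPS12, which lies at the decoding centre, had medians of 32.8 in controls and 36.9 in knockouts, and MRPS7 of 14.9 and 13.3. MRPL3, whose gene has a long span, was near 1 RPKM or below throughout, with 0.763 and 0.614. In morulae MRPL41 stood at 155, 224, 224 and 307 RPKM in controls and at 167, 198, 225 and 280 in knockouts. Knockout morulae 21 and 49 were inside the range of the controls for MRPL41, with 198 and 280 RPKM from 5 and 8 reads.

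Genotype differences were tested with limma on log2(RPKM + 1), with sex as a term and adjustment over all genes tested. The filter on low values was passed by 88 of 101 members in blastocysts (43 of 48 MRPL, 24 of 29 MRPS, 13 of 14 TIMM and 8 of 10 TOMM genes). Of these, 0 were called at an adjusted p of 0.05. Of all 6283 genes tested 0% were called. At an unadjusted p under 0.05 there were 0 members lower and 0 higher in knockouts, where 0.955% of all genes were lower and 1.80% higher. The median log2 difference was 0.17 over members and 0.08 over all genes tested, and members ran from -0.57 to 0.70. Of the 88, 23 lay below 0, against 37.7% of all genes. Without control 12 the members' median was -0.09, and without a sex term it was -0.04. MRPL genes had a median of 0.12, MRPS of 0.24, TIMM of 0.19 and TOMM of 0.17. In a weighted fit to the recovered reads (voom) 0 members were called and 1 was higher at an unadjusted p under 0.05. The share of all genes at that p in that fit is not given here. That fit moved the median of all genes to 0.40, and the members' median was 0.41. In no gene tested did the 9 knockouts lie wholly below or wholly above the 17 controls (0% in each direction).

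Named members showed the same small differences. MRPL40, which had the largest positive difference among those named, ran from 0 to 163 RPKM in controls with a median of 59.5 and from 44.5 to 106 in knockouts with a median of 70.2. Its log2 difference was 0.70 with an SE of 0.54, an unadjusted p of 0.208 and an adjusted p of 0.994. MRPL12, a large-subunit protein that in human cells also binds the mitochondrial RNA polymerase, differed by 0.57 (SE 0.47, adjusted p = 0.994). TIMM23 differed by 0.51 (SE 0.32, adjusted p = 0.994). On the other side MRPL23 differed by -0.57 (SE 0.51), TIMM21, a TIM23 subunit, by -0.51 (SE 0.38) and TOMM7 by -0.50 (SE 0.47), all with an adjusted p of 0.994. The paralogues MRPS18A, MRPS18B and MRPS18C, members of 1 ribosomal protein family, differed by 0.09, 0.47 and -0.02. MRPL3 and TIMM9 did not pass the filter.

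The blastocyst result was read again without the 6 control blastocysts under 1.5% in bta-mir-2887-1, a limit chosen after the data were seen. Of these, 5 hold the highest member shares of all blastocysts, and control 12 holds the lowest. Leaving out those 5 lowers the controls' member share by construction. So members higher in knockouts in this refit are a description and no support for a higher level. With 9 knockouts and 11 controls left, 0 of 87 members were called, and 10 were higher and 0 lower in knockouts at an unadjusted p under 0.05, where 2.48% of all genes were higher. The median over members was 0.20 and over all genes -0.04. The 10 were MRPS25, MRPS24, MRPL30, MRPL40, TIMM23, MRPL41, MRPS36, MRPL12, MRPS14 and MRPL22, of which 9 carry ribosomal symbols. The protein of MRPS36 has since been assigned to alpha-ketoglutarate dehydrogenase. Their log2 differences ran from 0.35 in MRPL22 to 0.75 in MRPS36, and the smallest adjusted p was 0.511. MRPS25 differed by 0.48 (SE 0.16, unadjusted p = 0.0061) and MRPS24 by 0.49 (SE 0.16, unadjusted p = 0.00689). Of nuclear genes of the respiratory chain and ATP synthase 10 of 77 were higher at that p and 0 lower, and of the mitochondrially encoded genes 0 of 13 were.

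In morulae no member passed the adjusted threshold, and differences were wider. Of the 99 members 85 passed the filter and 0 were called, and of all 5021 genes 0% were. At an unadjusted p under 0.05 there were 3 members lower and 0 higher in knockouts, where 5.97% of all genes were lower and 0.896% higher. In the voom fit 0 members were called, with 2 lower and 1 higher at that p, and the share of all genes is not given here. The count of lower members was 6 without knockout 5 and 1 without any 1 of controls 39, 41 and 73 and knockouts 21 and 49. Below 0 lay 54 of 85 members and 69.2% of all genes. The median over members was -0.23 and over all genes -0.34, and members ran from -2.36 to 1.28. The members' median was 0.10 without knockout 21 and 0.08 without control 73. By class the median was -0.19 over 41 MRPL and 0.13 over 22 MRPS genes, against -0.69 over 14 TIMM and -0.93 over 8 TOMM genes. The difference between classes was not tested, and without knockouts 21 and 49 the TIMM and TOMM medians were 0.10 and -0.14.

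**Figure D3:**
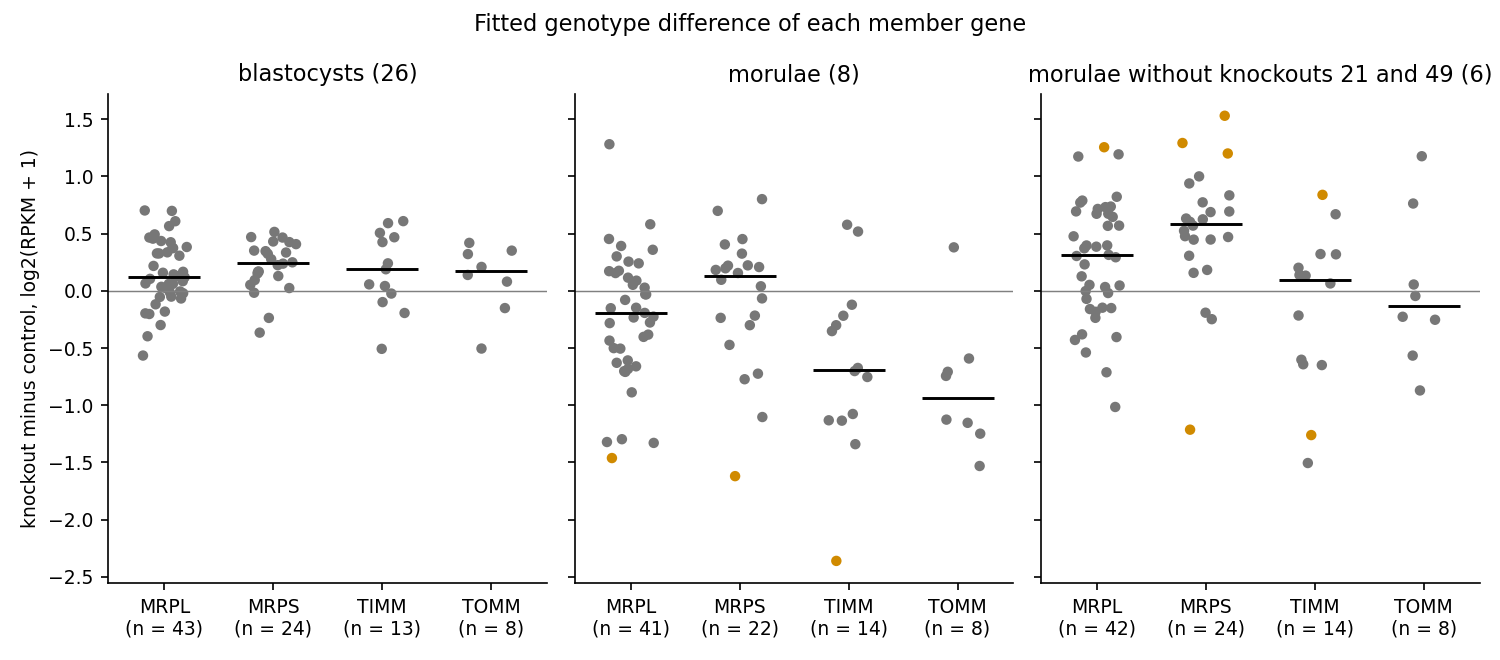
Log2 difference between knockouts and controls on log2(RPKM + 1), 1 point per member that passed the filter, by class, with a line at the class median and orange points for an unadjusted p under 0.05, in all blastocysts, all morulae and the morulae without knockouts 21 and 49. In blastocysts the class medians lie between 0.12 and 0.24, and in morulae TIMM and TOMM genes lie lowest, at -0.69 and -0.93, which become 0.10 and -0.14 without the 2 knockouts.

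The 3 members at that p were TIMM8A, MRPS11 and MRPL50. TIMM8A, a small TIM chaperone encoded on the X chromosome (50861910 to 50864672, assembly ARS-UCD1.2), stood at 11.5, 17.98, 18.2 and 22.4 RPKM in the controls and at 0, 0, 5.81 and 8.96 in the knockouts. All 4 knockouts lay below all 4 controls. The knockout values rest on 0, 0, 2 and 3 reads and the control values on 6 to 92. The log2 difference was -2.36 (SE 1.003, unadjusted p = 0.0413, adjusted p = 0.697). Its paralogue TIMM8B (chromosome 15, 22395340 to 22397325) overlapped between the groups and differed by -0.30 (SE 0.71, adjusted p = 0.969). In blastocysts TIMM8A lay the other way, with medians of 15.0 RPKM in controls and 22.4 in knockouts. Its log2 difference there was 0.59 (SE 0.51, adjusted p = 0.994).

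MRPS11, a small-subunit protein (chromosome 21, 19484255 to 19495138), was at 2.28, 2.51, 2.84 and 3.24 RPKM in the controls. It was at 0 in 3 knockout morulae and at 2.27 in number 5, just under the lowest control. These are 0 and 3 reads in knockouts and 3 to 46 in controls. The log2 difference was -1.62 (SE 0.53, unadjusted p = 0.0122, adjusted p = 0.504). MRPL50, of the large subunit, was at 0.321, 2.74, 2.90 and 3.97 RPKM in controls and at 0, 0, 0 and 2.32 in knockouts, which overlap (log2 difference -1.46, SE 0.62, adjusted p = 0.697). TIMM8A and MRPS11 were the 2 of 85 members whose knockouts all lay below the controls, where 7.91% of all genes tested did so. None of the 85 members lay wholly above, where 0.558% of all genes did. In blastocysts MRPS11 differed by 0.22 (SE 0.34, adjusted p = 0.994) and MRPL50 by -0.02 (SE 0.34, adjusted p = 0.998).

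TOMM20, TIMM23 and TOMM22 were at 0 in the same 2 knockout morulae, numbers 21 and 49. Zeros in both were not particular to these genes, since MRPL50, MRPS11 and TIMM21 were at 0 there too. Number 21 had reads in 33 members only. The share of all genes at 0 in both embryos is not given here. TOMM20 stood at 7.71, 7.76, 12.2 and 13.9 RPKM in controls and at 0, 0, 4.91 and 8.42 in knockouts, with the zeros in numbers 21 and 49. TIMM23 stood at 3.89, 6.01, 6.70 and 7.32 in controls and at 0, 0, 2.35 and 4.56 in knockouts, with the zeros in the same embryos. TOMM22 stood at 18.5, 20.9, 39.5 and 55.5 RPKM in controls, at 50.3 and 77.4 in knockouts 5 and 1, and at 0 in numbers 21 and 49. So for TOMM22 the knockouts lay at both ends of the range. TIMM44, another import gene, was not low in them. It stood at 4.08, 4.43, 5.89 and 8.89 RPKM in controls and at 4.36, 6.73, 9.01 and 11.9 in knockouts, with 6.73 in number 21 and 11.9 in number 49. TIMM10 was at 0 in number 21 alone, and TIMM21 was at 0 in numbers 1, 21 and 49. The log2 differences of TOMM20, TIMM23 and TOMM22 were -1.53 (TOMM20, adjusted p = 0.853), -1.34 (TIMM23, adjusted p = 0.849) and -0.71 (TOMM22, adjusted p = 0.967).

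MRPL30, a large-subunit protein (chromosome 11, 4336948 to 4351724), had the largest positive difference in morulae. It was at 0, 0.309, 1.17 and 1.43 RPKM in controls and at 0, 2.23, 2.71 and 7.61 in knockouts. The highest value is 5 reads in number 49, and the zero among knockouts is number 21. Knockouts 1, 5 and 49 lay above all controls. The log2 difference was 1.28 (SE 0.72, unadjusted p = 0.104, adjusted p = 0.853). In blastocysts MRPL30 ran from 0 to 4.91 in controls and 1.12 to 4.34 in knockouts, with a log2 difference of 0.46 (SE 0.28, adjusted p = 0.994).

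The morulae were fitted again without knockouts 21 and 49, which have the fewest genes and the fewest members detected. Since their member shares are also the lowest, leaving them out raises the knockouts' member share by construction, and the turn in direction is a description and no support for a higher level. The 2 remaining knockouts were compared with 4 controls, and 0 of 88 members were called. At an unadjusted p under 0.05 there were 5 members higher and 2 lower, where 4.01% of all genes were higher and 7.80% lower. The median over members was 0.32 and over all genes -0.08, and 28 of 88 members lay below 0 against 54.1% of all genes. MRPS genes had a median of 0.59 with 3 of 24 below 0, MRPL of 0.31, TIMM of 0.10 and TOMM of -0.14. The 5 higher were MRPL30, MRPS15, MRPS23, MRPS16 and TIMM22 and the 2 lower TIMM8A (-1.26, adjusted p = 0.303) and MRPS11 (-1.21, adjusted p = 0.413). The 2 knockouts left out had 85929 and 43679 reads in genes and 4392 and 4956 genes detected, against 8124 to 13652 in the controls. Depth and trophectoderm marker levels differed with genotype in the morulae, and their part in these values was not tested.

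The import genes can be set against the ribosome within each embryo, which needs no scaling between embryos. TIMM and TOMM reads were 23.8%, 27.0%, 27.8% and 29.0% of all member reads in the control morulae. In the knockout morulae they were 17.7%, 18.1%, 21.9% and 24.2%. Of the knockouts, 3 lay below all controls, and number 5 lay just above the lowest control. That control, number 54, had 0.00675% of its reads in the bta-mir-2887-1 rows, against 4.33% to 5.47% in the other control morulae. The knockout morulae had 1.87% to 2.85% there, between number 54 and the other controls. So that share differed between genotypes as well, and it gives no ground to set number 54 aside. Morulae were not left out by that share, and its bearing on these values was not tested. The Wilson 95% interval of number 21, from 62 member reads, ran from 10.2% to 29.0%. That of number 49, from 177, ran from 13.1% to 24.4%, and that of number 1, from 927, from 19.4% to 24.7%. The intervals of all 4 knockouts reach the lowest control. In blastocysts the share ran from 24.0% to 29.1% in 17 controls and from 23.4% to 29.5% in 9 knockouts, with medians of 27.1% and 26.7%. In the 5 controls with a high member share it ran from 24.0% to 27.7%, inside the range of the knockouts. Intervals cover counting error only, and reads without molecular identifiers are not independent molecules.

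**Figure D4:**
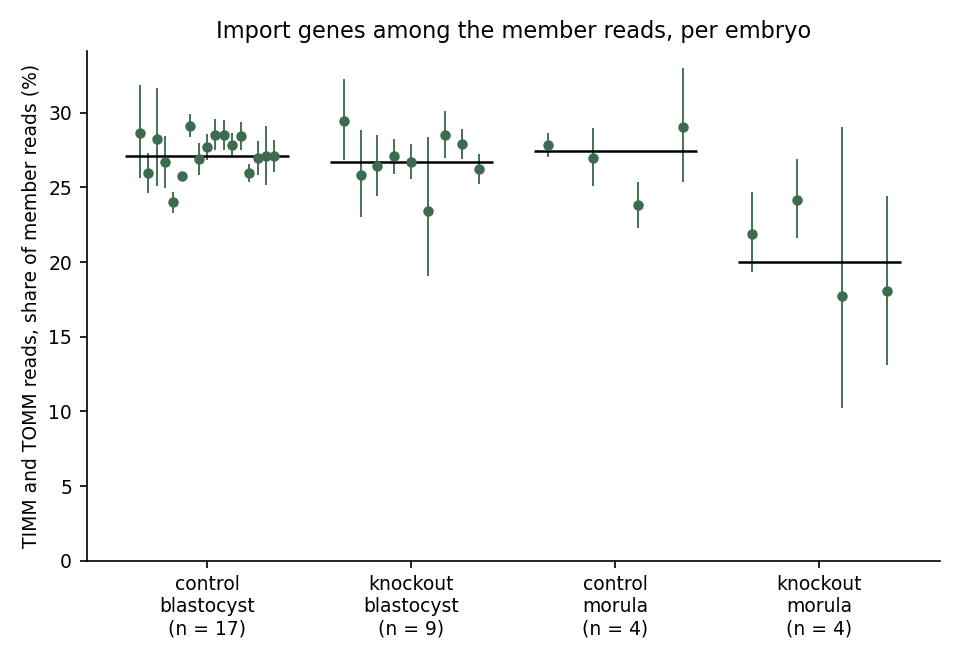
TIMM and TOMM reads as a percent of all member reads, 1 point per embryo with its Wilson 95% interval and a line at the median of each group, on an axis from 0. The 26 blastocysts lie between 23.4% and 29.5%, and 3 of 4 knockout morulae lie below the control morulae, with wide intervals for numbers 21 and 49.

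The authors' deposited table gives its own log2 fold changes between genotypes, with sex as a block. No member (0) of the authors' deposited table had a false discovery rate under 0.05 at either stage, where 15 of all blastocyst genes and 27 of all morula genes did. In the authors' deposited table for morulae 23 of 29 MRPS genes were higher in knockouts and 26 of 47 MRPL genes were, while 11 of 14 TIMM genes and 6 of 9 TOMM genes were lower. In the authors' deposited table, of all morula genes 63.4% were lower, so the TOMM count lies near the background. The median of all morula genes in the authors' deposited table was -0.49 and that of the members 0.08. MRPL30 was the member with an unadjusted p under 0.05 there, with a log2 fold change of 2.03 and p = 0.0377 in the authors' deposited table. In the authors' deposited table for blastocysts 49 of 101 members were lower, against 48.8% of all genes.

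No member passed the adjusted threshold between male and female blastocysts. With genotype as a term, 0 of 88 members and 0% of all 5959 genes tested were called. At an unadjusted p under 0.05 there were 25 members higher in males and 0 lower, where 10.2% of all genes were higher and 0.940% lower. That count rested on single embryos. It was 50 without control 52, 16 without control 18 and 13 without any 1 of controls 11, 36, 37 and 51. The median log2 difference, male minus female, was 0.70 over members and 0.27 over all genes, and 3 of 88 members lay below 0 against 19.3% of all genes. Of the 25, 16 were MRPL genes, 7 MRPS genes and 2 TIMM genes. In the voom fit 0 members were called and 45 were higher at that p, with a median of 1.18 over members and 0.58 over all genes. In a fit with quality weights MRPL36 was called, with a log2 difference of 0.71 and an adjusted p of 0.0434. The shares of all genes past these thresholds in the voom and weighted fits are not given here. So these counts of members cannot be set against a background.

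The members of smallest p were MRPL42, MRPL49 and MRPL51, all proteins of the large subunit. MRPL49 ran from 0 to 18.5 RPKM in 15 females with a median of 9.56 and from 12.6 to 23.8 in 11 males with a median of 16.03, which overlap. Its log2 difference was 1.14 (SE 0.43, unadjusted p = 0.0141, adjusted p = 0.424). MRPL51 had medians of 15.0 in females and 25.6 in males (log2 difference 1.19, SE 0.46, adjusted p = 0.424). MRPL42, low on this scale with medians of 0.821 and 1.71 RPKM, had the smallest p of the members (log2 difference 0.69, SE 0.25, unadjusted p = 0.0101, adjusted p = 0.424). TIMM50 had medians of 18.1 and 25.9 RPKM (log2 difference 0.93, SE 0.39, adjusted p = 0.424).

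Of the 5 controls with a high member share 4 were male, and control 12, with few members detected, was female. Without these 6 the count of members higher in males at an unadjusted p under 0.05 went from 25 to 8 of 88, where 5.48% of all genes were higher. The median was 0.24 over members and 0.13 over all genes. The 8 were MRPL15, MRPL12, MRPL43, TIMM29, TIMM50, MRPL37, MRPL36 and MRPL23, with log2 differences from 0.44 to 1.001 and adjusted p from 0.545 to 0.639. Over these 20 embryos the member share of reads ran from 0.544% to 1.25% in 13 females and from 0.658% to 0.913% in 7 males, with medians of 0.750% and 0.781%. The sexes overlapped. The genotype difference was not shown to differ between the sexes, since the interaction of sex and genotype was called for 0 of 88 members and 0% of all 6283 genes, with 0 members at an unadjusted p under 0.05.

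**Figure D5:**
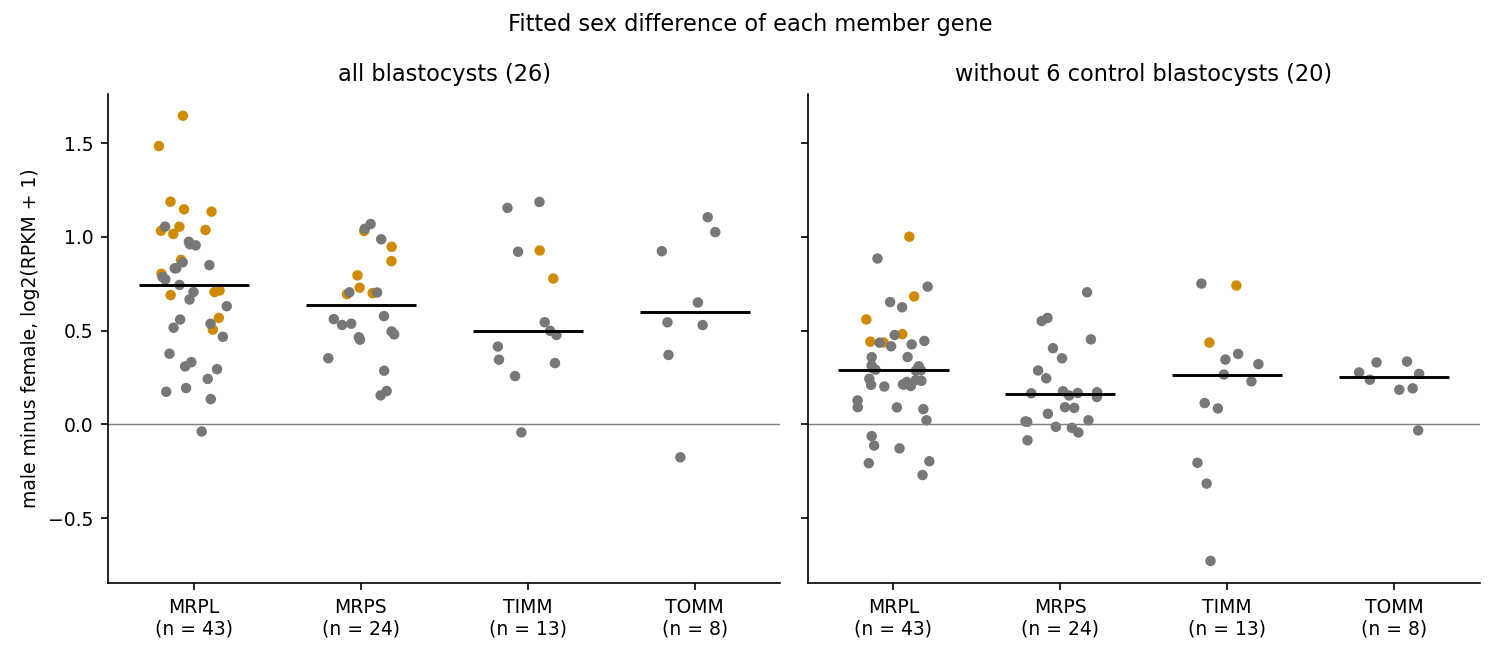
Log2 difference between male and female blastocysts on log2(RPKM + 1), 1 point per member that passed the filter, by class, with a line at the class median and orange points for an unadjusted p under 0.05. With all 26 blastocysts 25 members are orange and 3 lie below 0, and without the 6 controls under 1.5% in bta-mir-2887-1 there are 8 orange points and the median over members is 0.24.

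Among the members 2 are encoded on the X chromosome, TIMM8A and TIMM17B (87009815 to 87013605), the latter an alternative to TIMM17A in the TIM23 channel. TIMM17B ran from 0 to 187 RPKM in females with a median of 44.5 and from 26.9 to 84.6 in males with a median of 38.3. Sexes were permuted within genotype, two-sided, and the male minus female log2 difference was 0.33 (p = 0.684, adjusted over both X-linked members 0.942). TIMM8A ran from 0 to 52.6 RPKM in females with a median of 22.4 and from 4.75 to 41.03 in males with a median of 11.4 (log2 difference -0.04, permutation p = 0.942, adjusted 0.942). Without the 6 controls the females' median of TIMM8A was 22.4 and the males' 11.3, with ranges of 5.84 to 52.6 and 4.75 to 20.1 (log2 difference -0.73, permutation p = 0.0642, adjusted 0.128). TIMM17B then had medians of 44.5 and 30.9 (log2 difference -0.32, permutation p = 0.191, adjusted 0.191). Their autosomal paralogues on these embryos had medians of 4.10 in females and 4.997 in males for TIMM17A and of 36.6 and 37.1 for TIMM8B. For all 4 genes the sexes overlapped.

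The partners of these genes, taken from lists of import partners, assembly and translation factors and others, were fitted in the same tests. In blastocysts 0 of 17 tested import partners (of 23) and 0 of 9 mitochondrial aminoacyl-tRNA synthetases (of 17) reached an unadjusted p under 0.05 between genotypes. Of 16 tested genes (of 25) for ribosome assembly and mitochondrial translation 1 was higher and 0 lower. The medians of these 3 lists were 0.11, 0.07 and 0.20. In morulae 0 of 16 import partners, 0 of 9 synthetases and 0 of 14 assembly and translation genes reached that p, with medians of -0.41, 0.15 and -0.30. Of 8 tested genes for the copying and transcription of mitochondrial DNA in blastocysts and 6 in morulae 0 reached it, with medians of 0.02 and 0.35. Of 5 proteins of the mitochondrial ribosome under other names 4 were tested at each stage and 0 reached it, with medians of 0.12 and -0.51. Cytosolic ribosomal proteins had medians of 0.06 in blastocysts and -0.40 in morulae.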

How the data were processed

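Per the labels' protocols and the submitters' processing notes, poly(A) RNA of single embryos was made into stranded libraries, counted per gene with featureCounts and tested with edgeR on ARS-UCD1.2. Aligner, versions, strand setting and the treatment of reads with several matches are not given in the sources used here, so genes with near-identical copies elsewhere are uncertain. The authors deposited RPKM per gene and embryo. The morula table names no unit, and RPKM was inferred. The authors' deposited log2 fold changes, p-values and false discovery rates are quoted as such. Dividing by the step of 1 read gave whole reads, within 0.01, for 100% of genes in each embryo; these gave depths, CPM and shares.

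limma 3.58.1 (R 4.3.3, limma-trend, robust, two-sided, Benjamini-Hochberg) was run on log2(RPKM + 1), which understates changes of low genes. Genes needed RPKM of at least 1 in 9 blastocysts or 4 morulae (genotype, with sex as a term) or 11 blastocysts (sex, with genotype). It was tested on simulated data with large changes in genes of high mean level. A minimum recovery of these was required in the blastocyst comparisons and not in morulae. So the absence of calls in morulae does not show the absence of changes. In blastocysts it does not show the absence of small changes or of changes in low genes, which were not simulated. Sexes were permuted 100000 times for X-linked members.

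Members and lists were chosen with earlier results of these data known. Named were import subunits and paralogue pairs listed beforehand, any member past the threshold, the 10 of smallest p per comparison and direction with a mean of at least 1 RPKM in a group, and the 3 highest and lowest by CPM; others named past these, among them members at p under 0.05 in the reduced sets of embryos, were picked after their values were seen.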

Additional observations from a re-analysis of the deposited data

Results flagged for a closer look

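In 145 groups of 4 to 9 embryos checked, 18 had 1 embryo far from the others by Dixon's criterion, where chance flags about 1 in 20. In knockout blastocysts number 58 was high for its share of reads in all members (1.25%), in MRPL genes (0.599%) and in MRPS genes (0.293%). It was at 0 RPKM for TOMM40L. Knockout blastocyst 57 was low for the members with reads, 79 in all, 38 of the MRPL and 24 of the MRPS genes. It was also low for MRPS10 (0 RPKM), MRPS7 (0 RPKM) and TOMM20 (2.25 RPKM). Knockout blastocyst 3 was low for MRPL37 (4.18 RPKM).

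In knockout morulae number 5 was high for MRPL50 (2.32 RPKM), MRPS11 (2.27 RPKM) and TIMM21 (4.12 RPKM), each at 0 in the other 3. Knockout morula 21 was low for TIMM10 (0 RPKM). In control morulae number 73, the shallowest of them, was low for the members with reads, 87 in all, 25 of the MRPS and 7 of the TOMM genes. Groups of more than 10 embryos, such as the control blastocysts, were not checked in this way.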

How the results depend on the processing

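No paired analysis was possible because the groups share no embryo numbers. Counts are members at an unadjusted p under 0.05 unless called, and the share of all genes is not given beside them in this section. Between genotypes in blastocysts 0 were called under any alternative run; higher were 1 with voom, 1 with quality weights (and 1 lower) and 10 above the bta-mir-2887-1 limit. Leaving out 1 embryo at a time gave 0 to 1 lower (1 without control 12), 0 to 2 higher (2 without control 52) and medians of -0.09 (without control 12) to 0.33 (without control 52). In morulae 0 were called under any alternative run; lower were 1 with no filter and 5 with no sex term, and higher were 2 with quantile scaling, 1 with voom, 1 with quality weights and 5 without knockouts 21 and 49. Leaving out 1 embryo gave 1 lower without control 39, 41 or 73 or knockout 21 or 49, up to 6 without knockout 5, 0 to 1 higher and medians of -0.68 to 0.10 (without knockout 21). The morula median was 0.03 with quantile scaling, 0.00348 with voom and 0.09 with quality weights, so its direction is not settled. Between sexes higher were 15 with a pseudocount of 0.1, 15 with quantile scaling, 45 with voom, 16 without control 12 and knockout 57 and 8 above the limit; with quality weights 1 was called and 1 was lower. Leaving out 1 embryo gave 13 higher without control 11, 36, 37 or 51, 16 without control 18, up to 50 without control 52, 0 lower, 0 called and medians of 0.41 to 0.82. The cause was not tested. Of the named members tested, the sign turned in 88 of 1482 refits between genotypes in blastocysts, 45 of 576 in morulae and 35 of 1254 between sexes. Morulae with at least 100000 reads could not be fitted with sex.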
